A study of Mus musculus with 19 samples.

Results

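The genes described here are 38 genes of mitotic entry, chromosome segregation and cytokinesis (G2-M cell division genes), followed through the exit of mouse embryonic stem (ES) cells from the naive state and the return of some of their descendants to it. They were taken by symbol from the deposited gene tables, and all 38 were found among 22756 gene entries. Of these, 36 have an entry of their own, Kif20a is counted together with Brd8, and Nusap1 together with Oip5, so the values printed for Kif20a and Nusap1 include reads of the other gene. Stranded mRNA sequencing measured them in 19 libraries of ES cells with a short-lived green fluorescent protein (GFP) reporter of Rex1 (Zfp42), a gene that marks naive ES cells. The reporter shows where Rex1 is active and does not by itself show the cell cycle phase.

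Lines grown on from GFP-positive cells in LIF with inhibitors of MEK and GSK3 came from picked colonies (8 colony lines, numbered 1, 3 to 7, 9 and 10) or from sorted GFP-positive cells (2 sorted lines). Their parent cultures were day-2 cells without GFP and without the ES cell surface antigen SSEA1, kept to day 15 with AICAR, a nucleoside used to activate the kinase AMPK. These AICAR cultures gave 3 libraries of GFP-positive cells, 1 of GFP-negative cells and 1 of the unfractionated culture. The time course without drug holds 1 library each of undifferentiated cells in the LIF and inhibitor medium, of cells after 2 days in serum differentiation medium, of the SSEA1-negative GFP-negative cells sorted at day 2 (day-2 sorted cells), and of such sorted cells kept in differentiation medium without AICAR to day 15. All groups carry the same reporter and share 1 source name, and nothing in the labels tells whether replicates were cultured separately. The p-values given here therefore reflect the spread among these libraries, which may be technical. Gene counts summed to 5771671 to 8262357 reads in 17 libraries. AICAR GFP-positive replicates 1 and 2, sequenced in a second project, had 12751260 and 14233421. AICAR GFP-positive replicate 3, of the first project, stood apart from replicates 1 and 2, with summed CPM (reads scaled to a common library size) of 8 visceral endoderm markers at 866 against 125 and 119, and of 8 ES cell markers at 3651 against 5345 and 4701.

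Cells enter mitosis when cyclin B binds CDK1 and the CDC25 phosphatases remove the inhibitory phosphates from it. Polo-like and Aurora kinases then build the spindle, the BUB1, BUBR1 and MPS1 kinases hold anaphase until chromosomes are attached, and CDC20 directs the anaphase-promoting complex to destroy cyclin B and securin. In many of these genes the transcripts rise in G2 through a promoter element called the CHR, often with CCAAT boxes beside it, which are bound by the DREAM, MYBL2-MuvB and NF-Y complexes, with FOXM1 joining late in the cycle. ES cells are known for a short cycle with much of it spent in S phase.

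Promoter windows from 250 bases before to 50 bases after the start were available for 31 of the 38 genes in the RefSeq table of build GRCm38.p6, and Ccna2, Cdc25c, Foxm1, Aurkb, Tpx2, Kif20a and Smc4 had none. A CHR (TTTGAA or TTCGAA, read on either strand) stood in 25 of 31 windows, or 80.6%, against 71.1% of 38 windows of other G2-M genes, 18.2% of 33 windows of DNA replication genes and 19.4% of all 27025 windows. A CCAAT box (CCAAT on either strand) stood in 26 of the 31 windows, or 83.9%. The share was 60.5% of the other G2-M windows, 60.6% of the DNA replication windows and 37.9% of all windows. Both stood in 23, or 74.2%, against 52.6% of the other G2-M windows, 15.2% of the DNA replication windows and 7.7% of all windows. No CHR match overlapped a CCAAT match in any of the 31. An E2F site (TTTCCCGC, TTTCGCGC, TTTGCCGC or TTTGGCGC on either strand) stood in 3, or 9.68%, against 33.3% of the DNA replication windows and 2.32% of all windows. In 22 of the 25 genes the nearest CHR began within 50 bases of the start. The stretches printed here belong to genes whose values are described further on, and run 5′ to 3′ along the gene's own strand, with CHR and CCAAT matches on either strand in capitals (TTCAAA and ATTGG are the same motifs read on the other strand). In Cdc20 and Kif23 the nearest CHR and CCAAT were 4 bases apart, Mki67 held 2 CHR matches, and Ccnb1 held 2 CCAAT boxes and no CHR in its window.
Cdk1: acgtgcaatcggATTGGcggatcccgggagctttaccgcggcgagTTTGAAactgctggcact
Ccnb1: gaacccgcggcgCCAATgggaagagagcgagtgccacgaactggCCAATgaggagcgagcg
Cdc25b: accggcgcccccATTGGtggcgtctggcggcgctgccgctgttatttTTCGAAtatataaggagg
Cdc20: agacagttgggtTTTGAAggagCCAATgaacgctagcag
Espl1: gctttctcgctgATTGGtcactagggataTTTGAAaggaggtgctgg
Cenpf: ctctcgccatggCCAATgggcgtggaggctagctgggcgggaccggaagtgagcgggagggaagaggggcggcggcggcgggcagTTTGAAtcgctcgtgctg
Kif11: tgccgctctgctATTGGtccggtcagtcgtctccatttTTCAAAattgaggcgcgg
Kif23: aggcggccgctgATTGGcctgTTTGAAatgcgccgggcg
Prc1: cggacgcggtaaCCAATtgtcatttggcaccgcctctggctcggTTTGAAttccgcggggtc
Mki67: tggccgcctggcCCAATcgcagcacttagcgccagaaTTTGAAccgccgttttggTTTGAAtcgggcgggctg
On GRCm38.p6 these are Cdk1 at chr10:69352910-69352972 (minus strand), Ccnb1 at chr13:100786537-100786597 (minus), Cdc25b at chr2:131186908-131186972 (plus), Cdc20 at chr4:118437335-118437373 (minus), Espl1 at chr15:102296237-102296283 (plus), Cenpf at chr1:189688067-189688169 (minus), Kif11 at chr19:37376325-37376380 (plus), Kif23 at chr9:61946780-61946818 (minus), Prc1 at chr7:80294402-80294463 (plus) and Mki67 at chr7:135716460-135716532 (minus). A match describes these letters in this window and does not show that a factor was bound.

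Summed over the 38 genes, G2-M transcripts stood at 9482 ± 337 CPM in colony lines (SD, n = 8) and 9063 and 9076 CPM in sorted lines. They stood at 9206 ± 598 CPM in AICAR GFP-positive cells (SD, n = 3), 5575 in AICAR GFP-negative cells and 5895 in unfractionated AICAR cells. In the time course the sum was 8266 CPM before differentiation, 8081 after 2 days, 7323 in day-2 sorted cells and 4369 in untreated day-15 cells. The sum was thus lowest in the untreated day-15 library, and the lines and the GFP-positive libraries stood above the undifferentiated library. In bulk RNA, fewer dividing cells and less G2-M RNA per cell cannot be told apart. Per length, the deposited RPKM (reads scaled to model length and library size) of undifferentiated cells were highest for Ube2c, the ubiquitin-conjugating enzyme of the anaphase-promoting complex, at 378 RPKM, and for Ccnb1 at 281, and lowest for Cdc25b at 13.6 and Cenpf at 18.7.

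**Figure D1:**
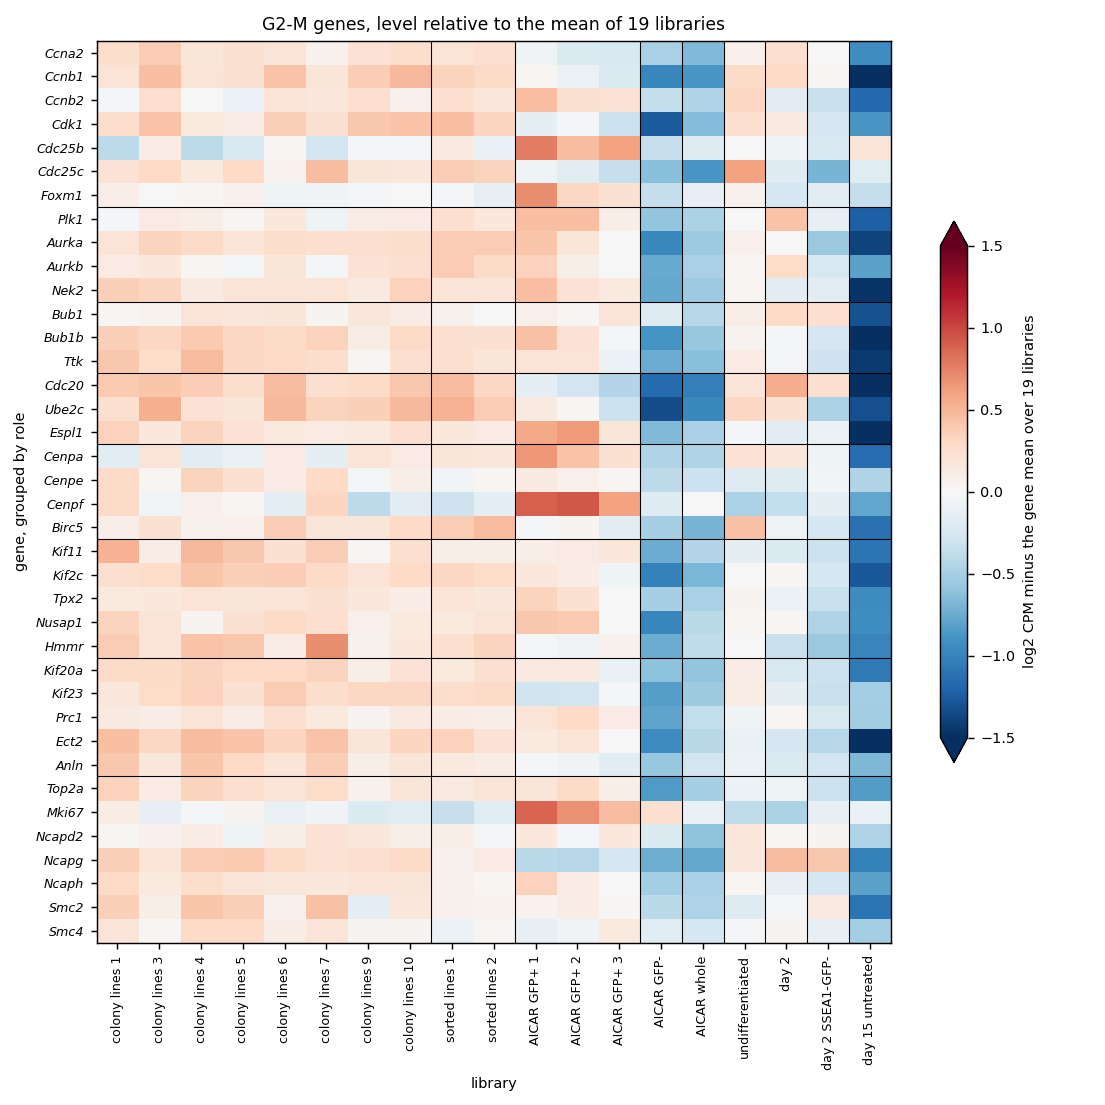
Heat map of the 38 G2-M genes (rows, by role) in the 19 libraries (columns, by group), coloured by log2 CPM after subtracting each gene's mean over the libraries. The untreated day-15 library is the lowest of the 19 for 27 of the 38 genes, and the colony and sorted lines sit above the gene mean for most genes.

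The first question the time course bears on is how long the G2-M programme outlasts the naive state. At day 2, none of the 38 genes was past 2-fold of undifferentiated cells in either direction, against 7.68% of 8174 genes that were more than 2-fold higher and 8.25% that were more than 2-fold lower. With 1 library a group there is no replicate check for any value of the time course, and the median log2 ratio of the 38 genes was -0.07. The lowest were Cdc25c, a CDK1-activating phosphatase, at -0.80, Birc5 (survivin, of the chromosomal passenger complex) at -0.52 and Ccnb2 (cyclin B2) at -0.47. The highest were Plk1 at 0.41, Cdc20 at 0.35 and Ncapg, a condensin I subunit, at 0.30. Day-2 sorted cells, already without GFP and SSEA1, had a median of -0.25, with 31 genes lower and 7 higher than in undifferentiated cells. There 1 gene, Cdc25c at -1.30, was past 2-fold lower and 0 past 2-fold higher, against 8.9% of 7992 genes lower and 7.91% higher. The next lowest were Ube2c at -0.79 and Birc5 at -0.71, and the highest were Cenpf at 0.34, the condensin core subunit Smc2 at 0.32 and Mki67 at 0.26.

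By day 15 without AICAR, 36 of the 38 genes were lower than in undifferentiated cells, with a median log2 ratio of -0.998 against 0.00 over all genes. More than 2-fold lower were 18 genes, against 23.5% of 9790 genes, and 0 were more than 2-fold higher, against 28.8%. Without the TMM scaling factors the median over all genes was 0.20 and that of the 38 genes -0.80. There 15 of the 38 were more than 2-fold lower, against 1854 of 9790 genes, and 0 more than 2-fold higher, against 3115. Entries of all kinds also differed by the length of their gene model between these libraries, with a median log2 ratio of -0.72 under 1000 bases and 0.29 over 4000 bases. Set against the median of entries in its own length class (under 1000, 1000 to 2000, 2000 to 4000 or over 4000 bases), 37 of 38 genes were still lower, with a median of -0.89 and 14 genes past 2-fold. The part of model length in single genes' differences was not tested.

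The regulators and effectors of anaphase were among the lowest. Espl1 (separase), the protease that cuts cohesin, had 261 CPM in undifferentiated cells, 235 at day 2, 248 in day-2 sorted cells and 67.5 at day 15. Ccnb1 (cyclin B1) had 387, 390, 323 and 102 CPM in the same order, and Cdc20 had 285, 364, 296 and 82.7 CPM. Each of these was near its starting level until day 2 and far lower at day 15, with log2 ratios to undifferentiated cells of -1.95 for Espl1, -1.92 for Ccnb1 and -1.78 for Cdc20. Bub1b (BUBR1), a core protein of the spindle checkpoint, was lower by the same order, at -1.87. By role, more than 2-fold lower at day 15 were 3 of 3 anaphase genes (Cdc20, Ube2c, Espl1), 3 of 3 checkpoint kinases (Bub1, Bub1b, Ttk), 3 of 4 mitotic kinases, 3 of 7 genes of the cyclin-CDK1 switch, 2 of 4 centromere and passenger genes, 2 of 5 midzone and cytokinesis genes, 1 of 5 spindle motor and microtubule genes and 1 of 7 chromosome structure genes.

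By their median log2 ratio at day 15, the midzone and cytokinesis genes stood at -0.62, the chromosome structure genes at -0.75 and the anaphase genes at -1.78, and differences between roles were not tested. Top2a (topoisomerase IIα, which untangles sister chromatids) had 909 CPM in undifferentiated cells, 919 at day 2, 771 in day-2 sorted cells and 539 at day 15. Mki67 (Ki-67, a coat protein of mitotic chromosomes and a common proliferation marker) had 401, 376, 479 and 486 CPM in that order. Mki67 was thus no lower at day 15 than at the start, at a log2 ratio of 0.28, and Cdc25b was the other gene above its starting level, at 0.20, followed by the kinetochore motor Cenpe at -0.25. The Mki67 model of 9774 bases falls in the class over 4000 bases, whose median was 0.29, so relative to entries of like length it stood at -0.01. Foxm1, the transcription factor that drives late G2-M genes, had 71.3, 57.1, 61.4 and 53.5 CPM in that order, a log2 ratio of -0.41 at day 15.

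Against day-2 sorted cells, their direct starting population, untreated day-15 cells had 13 of the 38 genes more than 2-fold lower and 0 more than 2-fold higher. Over 9758 genes these shares were 21.1% lower and 27.7% higher. Espl1 at -1.87, Cdc20 at -1.83 and Ccnb1 at -1.66 were the lowest, and Cdc25c at 0.51, Cdc25b at 0.43 and Mki67 at 0.02 the 3 that were higher. Markers of other cell types moved with these values. The summed level of 10 mesenchyme markers was 36070 CPM at day 15 against 45.7 in day-2 sorted cells, that of 8 muscle markers 3253 against 41.2, that of 6 stratified epithelium markers 1614 against 1.75, and that of 8 ES cell markers 68.9 against 2334. The part of this change of cells in the G2-M values was not tested.

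The genes of DNA replication were lower than the G2-M genes at day 15. Among the 39 DNA replication and S phase genes measured well enough, 38 stood more than 2-fold lower than in undifferentiated cells, with a median log2 ratio of -2.10. Ung (uracil-DNA glycosylase) at -3.04 and Orc1 (origin recognition) at -2.85 were the lowest, and Rrm1 (ribonucleotide reductase) at -0.75 the highest. Of 50 other G2-M genes outside the 38, 33 were more than 2-fold lower, with a median of -1.14, led by Cdca5 (sororin) at -2.66, while Ckap2l stood at 0.24. Among the regulators of G2-M transcription, Mybl2 (B-Myb) had 80.5 CPM at day 15 against 1056 in undifferentiated cells, a log2 ratio of -3.71, and the pocket proteins Rbl2 (p130) at 2.33 and Rb1 at 1.86 were more than 2-fold higher. The day-2 library already had Mybl2 at 332 CPM, a log2 ratio of -1.67, while the median of the 38 genes was at -0.07.

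**Figure D2:**
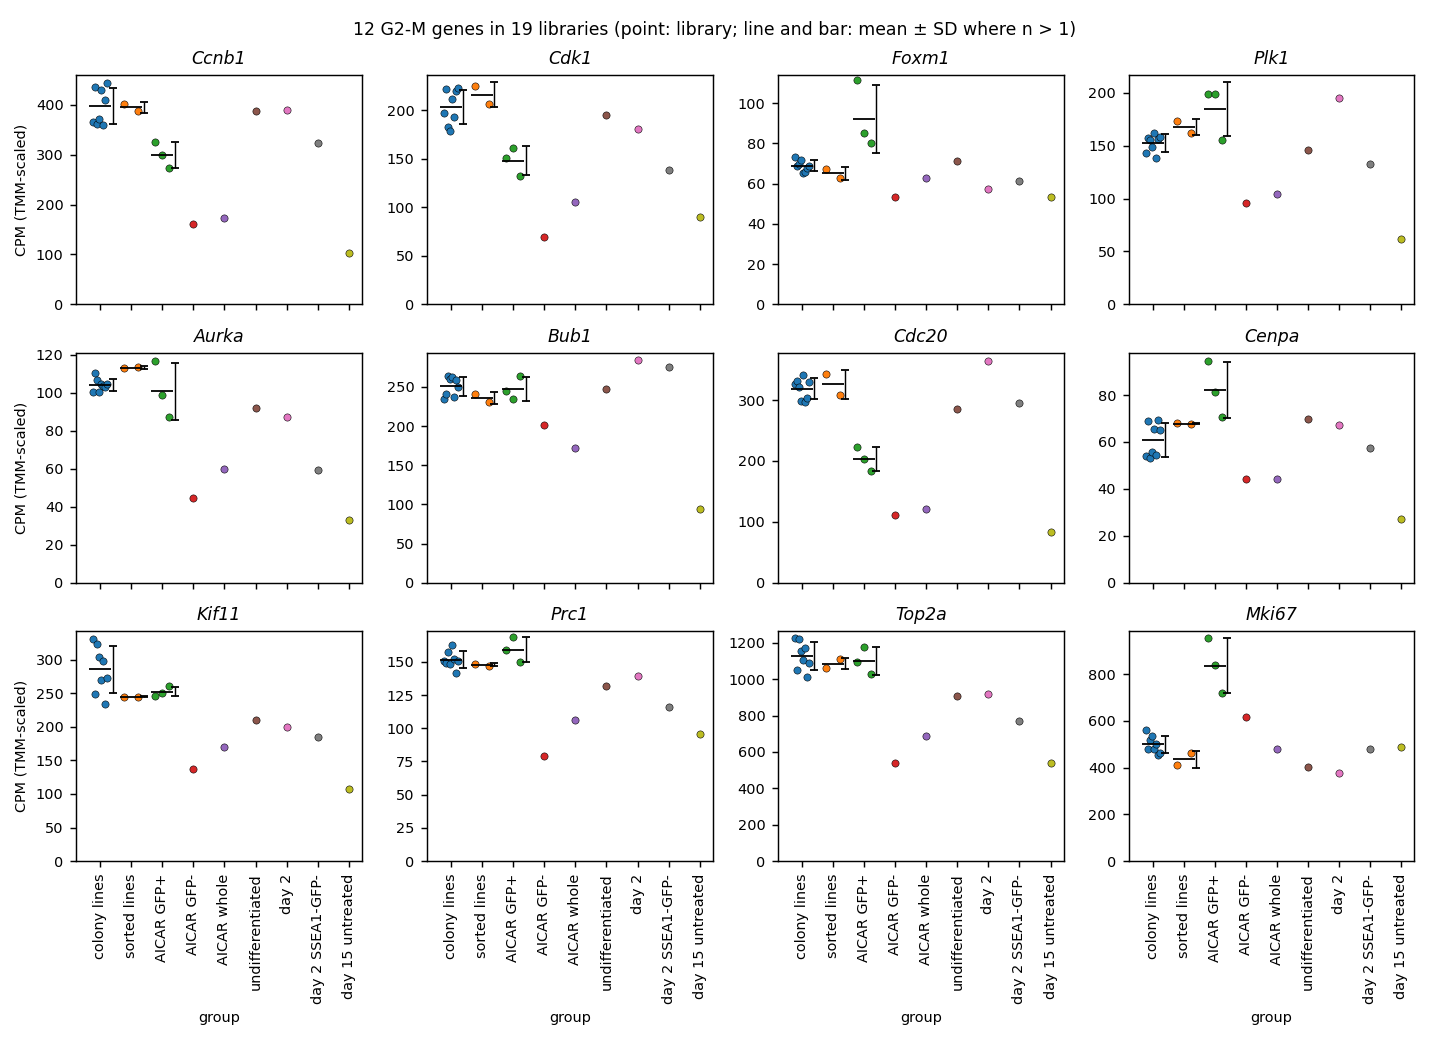
CPM of 12 G2-M genes (at least 1 of each role), on a linear axis from 0 in each panel; points are libraries, groups run along the horizontal axis, and lines and bars give mean ± SD where a group has more than 1 library. Ccnb1 and Cdc20 stand lowest in the untreated day-15 library, at 102 and 82.7 CPM, while Mki67 stands highest in the 3 AICAR GFP-positive libraries, at 719 to 955 CPM.

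AICAR treatment of the sorted cells gave cultures in which some cells regained GFP, and the comparison with untreated day-15 cells asks how the G2-M genes differ after the same time. In unfractionated AICAR cells 33 of 38 genes were higher than in untreated day-15 cells, with a median log2 ratio of 0.46. Past 2-fold higher were 3 of them, against 9.76% of 9607 genes, and 0 were past 2-fold lower, against 15.2%. The 3 were Espl1 at 1.48, Ect2 (the exchange factor that activates RhoA for cytokinesis) at 1.25 and Bub1b at 1.25, and the lowest was Cdc25c at -0.69. In AICAR GFP-negative cells 29 genes were higher and 9 lower than in untreated day-15 cells, with a median of 0.35. There 2 were past 2-fold higher, Espl1 at 1.30 and Bub1 at 1.10, against 11.5% of 9493 genes, and 0 past 2-fold lower, against 19.1%. Cdc25b at -0.54, Cdc25c at -0.45 and Cdk1 at -0.37 were the lowest. In the same comparison 26 of 39 DNA replication genes were past 2-fold higher, with a median of 1.24, and Mybl2 was higher by 2.46. Summed mesenchyme markers were 357 CPM in GFP-negative and 7383 in unfractionated AICAR cells, against 36070 in untreated day-15 cells. In the same order visceral endoderm markers summed to 802 and 960, against 347, and ES cell markers to 1681 and 2065, against 68.9. The part of these marker differences in the G2-M values was not tested.

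**Figure D3:**
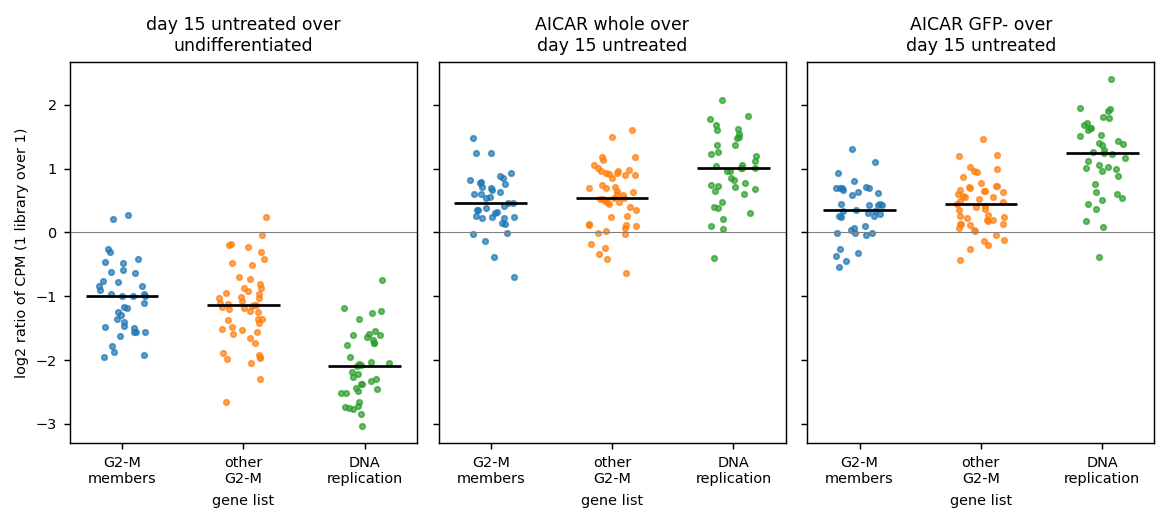
Log2 ratios of CPM between single libraries (vertical axis, 3 panels: untreated day 15 against undifferentiated, unfractionated AICAR and AICAR GFP-negative against untreated day 15) for the 38 G2-M genes, 50 other G2-M genes and the DNA replication genes; points are genes and bars are medians. DNA replication genes lie at a median of -2.10 at day 15 and 1.24 in GFP-negative AICAR cells, farther from 0 than the 38 genes at -0.998 and 0.35.

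AICAR GFP-positive cells had nearly the whole G2-M programme above the untreated day-15 library. In the edgeR quasi-likelihood test with Benjamini-Hochberg adjustment over all 14857 genes, 33 of 38 genes rose and 0 fell, against 22.3% of all genes that rose and 23.7% that fell. The median log2 fold change was 1.13, against -0.07 over all genes. The single day-15 library is assumed there to vary like the GFP-positive ones. Relative to entries of the same length class 37 of 38 genes were higher, with a median of 0.90. Leaving out GFP-positive replicate 2 left 16 genes called, all higher, against 2718 of 14431 genes. Within the first sequencing project, GFP-positive replicate 3 alone had 37 genes above the day-15 library and a median of 0.95, against 1.17 and 1.18 for replicates 1 and 2. Markers of most other cell types moved with these values: 10 of 10 mesenchyme, 8 of 8 muscle and 6 of 6 stratified epithelium markers fell and 8 of 8 ES cell markers rose. Of 8 visceral endoderm markers 1 fell and 7 were not called, with sums of 119 to 866 CPM in GFP-positive cells, against 347 in untreated day-15 cells. Summed mesenchyme markers stood at 7.91 to 98.5 CPM in GFP-positive cells, against 36070 in untreated day-15 cells, muscle markers at 12.6 to 68.9, against 3253, stratified epithelium markers at 0.373 to 5.07, against 1614, and ES cell markers at 3651 to 5345, against 68.9. Their part in the G2-M values was not tested.

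The 3 genes with the largest log2 fold changes were Espl1, Bub1b and Ect2. Espl1 had 394, 411 and 300 CPM in GFP-positive replicates 1, 2 and 3, against 67.5 in untreated day-15 cells, a log2 fold change of 2.45 ± 0.27 (SE, edgeR adjusted p = 0.00456). Bub1b had 469, 402 and 341 CPM, against 97.7, a change of 2.05 ± 0.25 (adjusted p = 0.00567). Ect2 had 222, 231 and 200 CPM, against 63.1, a change of 1.79 ± 0.18 (adjusted p = 0.00399). In each of these genes every GFP-positive library stood at 3 times the day-15 value or more. By role, the edgeR test called 4 of 4 mitotic kinases (median 1.59), 3 of 3 checkpoint kinases (1.56), 4 of 4 centromere and passenger genes (1.34), 3 of 3 anaphase genes (1.30), 5 of 5 spindle genes (1.22), 6 of 7 chromosome structure genes (0.78), 4 of 7 genes of the cyclin-CDK1 switch (0.77) and 4 of 5 midzone genes (0.74).

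Among the kinases and cyclins, Plk1 had 199, 199 and 155 CPM in GFP-positive cells, against 61.7 in untreated day-15 cells. Aurka (Aurora A, the centrosome and spindle kinase) had 117, 98.8 and 86.9 CPM, against 33.1. Ccnb1 had 325, 298 and 273 CPM, against 102. The groups did not overlap in these genes, with edgeR log2 fold changes of 1.58 for Plk1, 1.61 for Aurka and 1.55 for Ccnb1. Cdk1 itself differed less, with 151, 162 and 132 CPM in GFP-positive cells, against 89.9 in untreated day-15 cells, a change of 0.72 ± 0.18 (edgeR adjusted p = 0.0311). Not called were Foxm1 at 0.79, the condensin subunit Smc4 at 0.51, Cdc25b at 0.42, Kif23 (MKLP1, a motor of the central spindle) at 0.32 and Cdc25c at -0.01. Cdc25c, at 23.7, 22.1 and 19.6 CPM in GFP-positive cells against 22 in untreated day-15 cells, was the gene with overlapping groups. The share of all genes without overlap was not counted for this comparison. With the GFP-negative library as the single reference, every GFP-positive library stood above it in 39% of 13821 genes.

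The remaining named genes followed the same direction. Cenpa (the centromere histone H3 variant) had 94.6, 81.2 and 70.6 CPM in GFP-positive cells, against 27.0 in untreated day-15 cells. Cenpf, a large kinetochore protein, had 441, 451 and 362 CPM, against 138. Kif11 (Eg5, the motor that pushes spindle poles apart) had 247, 251 and 261 CPM, against 108. All 3 rose, by 1.60 for Cenpa, 1.60 for Cenpf and 1.23 for Kif11 on the log2 scale, and no GFP-positive library reached down to the day-15 value. Prc1, which bundles central spindle microtubules, had 159, 169 and 150 CPM, against 95.5. Top2a had 1092, 1179 and 1030 CPM, against 539, and Mki67 had 955, 838 and 719 CPM, against 486. In these too the lowest GFP-positive library stood above the day-15 library. The other genes called higher were the kinases Nek2 at 1.76, Ttk (MPS1) at 1.56, Bub1 at 1.40 and Aurkb at 0.96, the cyclins Ccnb2 at 1.48 and Ccna2 at 0.77, Cdc20 at 1.30, Ube2c at 1.28 and Birc5 at 1.08. Among spindle and midzone genes they were Kif2c at 1.35, the joined Nusap1 entry at 1.22, Tpx2 (the activator of Aurora A) at 1.15, the joined Kif20a entry at 1.11, Hmmr at 0.99 and Anln at 0.59. On chromosomes they were Smc2 at 1.16 and the condensin I subunits Ncaph at 0.97, Ncapg at 0.65 and Ncapd2 at 0.57, with the motor Cenpe at 0.53. Of the other lists, 37 of 40 DNA replication genes rose (median 1.69, led by Ung at 3.09), as did 38 of 50 other G2-M genes (median 1.15, led by Cdca5 at 2.44), and of 21 regulators 11 rose and 1 fell, with Mybl2 at 3.33 and Rbl2 at -1.43.

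The comparison of GFP-positive with GFP-negative cells after AICAR asks whether the G2-M genes go with the return of the reporter. In the plain values they did: in 38 of 38 genes every GFP-positive library was above the GFP-negative library, against 39% of 13821 genes, and the median log2 fold change was 0.86 against 0.06 over all genes. Espl1 had 394, 411 and 300 CPM in GFP-positive cells, against 167 in GFP-negative cells. Top2a had 1092, 1179 and 1030 CPM, against 537, and Cdk1 had 151, 162 and 132 CPM, against 69.7. The 3 differed by 1.14, 1.03 and 1.09 on the log2 scale, and in each the nearest GFP-positive library was well above the GFP-negative one. The largest differences were those of Ube2c at 1.29, the joined Nusap1 entry at 1.26 and Aurka at 1.18, and the smallest those of Smc4 at 0.18, Bub1 at 0.30 and Ncapd2, a condensin I subunit, at 0.31.

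The edgeR test called none of these. It called 0 of 38 genes in either direction and 0% of all genes higher and 0% lower, with a smallest adjusted p of 0.138 among the 38 and 0.111 among all, while 31 of the 38 and 3076 of all genes had an unadjusted p under 0.05. DESeq2 called 23 of the 38, all higher, and 1129 of all 13821 genes. Without GFP-positive replicate 3, edgeR called 32, all higher, against 3870 of 13829 genes. A single fit of all 19 libraries also called 32, against 3513 of 14871 genes. Replicate 3 alone had all 38 genes above the GFP-negative library, with a median of 0.70, against 0.98 and 0.83 for replicates 1 and 2. The direction was the same in each library, and the call differed between tools and fits. Relative to entries of the same length class the median was 0.73, with 38 of 38 genes higher. DNA replication genes had a median of 0.50 and other G2-M genes of 0.69. Summed visceral endoderm markers stood at 119 to 866 CPM in GFP-positive cells, against 802 in GFP-negative cells, and mesenchyme markers at 7.91 to 98.5, against 357. ES cell markers summed to 3651 to 5345 CPM in GFP-positive cells, against 1681 in GFP-negative cells. In GFP-positive replicates 1 and 2, 5 and 3 of the 10 mesenchyme markers had no reads. The part of these marker differences in the G2-M difference was not tested.

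**Figure D4:**
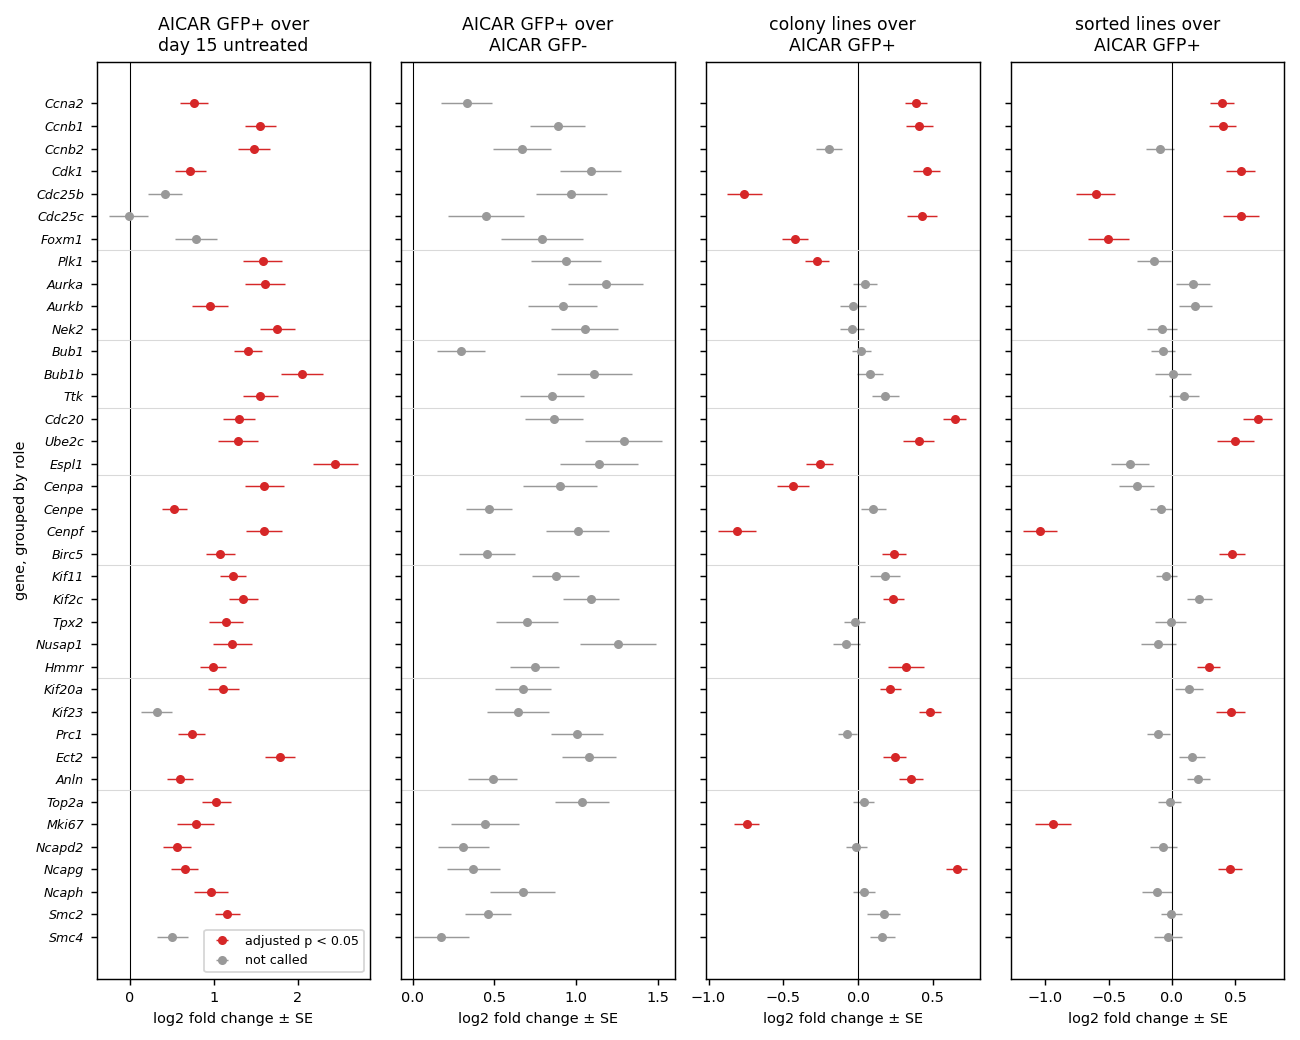
Log2 fold change ± SE of the 38 G2-M genes (rows, by role) in 4 comparisons, fitted with edgeR; red points passed an adjusted p of 0.05 and grey points did not. Against untreated day-15 cells 33 of 38 GFP-positive values are called and higher, against GFP-negative cells the values lie at a median of 0.86 with no call, and the colony and sorted lines scatter around 0 relative to GFP-positive cells.

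Further comparisons place the GFP-positive cells against the states before treatment, and they share the same 3 GFP-positive libraries with the comparisons above. Relative to day-2 sorted cells, 32 of 38 genes had a positive log2 fold change (median 0.44, against 0.06 over all genes), and in 29 every GFP-positive library was above the day-2 sorted library, against 38.9% of 13857 genes. The edgeR test called 1 gene, lower, and 0 higher, against 2.58% of all genes lower and 3.06% higher. Of the 38, 14 had an unadjusted p under 0.05, as did 3875 of all 13857 genes. The highest values were those of Cenpf at 0.95, Cdc25b at 0.85 and Mki67 at 0.81, not called. The called gene was Ncapg, with 110, 108 and 122 CPM in GFP-positive cells against 193 in day-2 sorted cells, a change of -0.77 ± 0.14 (edgeR adjusted p = 0.0460). DESeq2 called 8 genes, against 1947 of 13857, and edgeR without replicate 3 called 22, against 3943 of 13740. Without GFP-positive replicate 1 or 2 edgeR called 0 of the 38, against 302 and 0 of all genes. Summed visceral endoderm markers stood at 119 to 866 CPM in GFP-positive cells, against 9.05 in day-2 sorted and 5.16 in undifferentiated cells, with 0 of 8 called in either comparison. Of 8 ES cell markers 5 rose relative to day-2 sorted cells, with a sum of 3651 to 5345 CPM, against 2334. The part of these markers in the G2-M values was not tested.

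Relative to undifferentiated cells the GFP-positive values were mixed, with 24 genes positive and 14 negative and a median of 0.13 against 0.09 over all genes. In 14 genes every GFP-positive library was above the undifferentiated library, against 40% of 13640 genes. The edgeR test called 1 gene higher and 0 lower, against 2.15% of all genes higher and 1.99% lower. At an unadjusted p under 0.05 stood 7 of the 38 and 3969 of all 13640 genes. The called gene was Cenpf, with 441, 451 and 362 CPM in GFP-positive cells against 171 in undifferentiated cells, a change of 1.29 ± 0.20 (edgeR adjusted p = 0.0459). Mki67, with 955, 838 and 719 CPM against 401, changed by 1.06 ± 0.21 and missed the threshold (edgeR adjusted p = 0.0546). Both have long models, 9137 bases for Cenpf and 9774 for Mki67, and entries over 4000 bases had a median of 0.35 in this comparison; relative to it Cenpf stood at 0.94 and Mki67 at 0.71. Relative to entries of like length the 38 genes had a median of -0.02, with 19 above and 19 below. On the low side stood Cdc25c at -0.80, Ncapg at -0.54, Birc5 at -0.49 and Cdc20 at -0.48, and none of these 4 was called. Without GFP-positive replicate 1 or 2 edgeR called 0 of the 38, against 51 and 0 of all genes. Without replicate 3 it called 8, against 3966 of 13495 genes, and DESeq2 called 3, against 2026 of 13640. Of 40 DNA replication genes 3 fell, with Tk1 (thymidine kinase) at -1.39 and Rrm2 at -1.04, and 0 rose.

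The lines test whether the G2-M pattern of freshly recovered GFP-positive cells is kept on expansion in LIF with the inhibitors. Between colony lines and AICAR GFP-positive cells edgeR called 21 of 38 genes, 14 higher (36.8%) and 7 lower (18.4%), against 29.4% of 12225 genes higher and 28.4% lower. In either direction 7075 of the 12225 genes were called, so the 38 genes were called about as often as genes in general. The median log2 fold change of the 38 was 0.09, against 0.00 over all genes. Lines and GFP-positive cells differ in culture, and 2 of the 3 GFP-positive libraries also in sequencing project. With replicate 3, the library of the lines' own project, as the lone GFP-positive library, the median was 0.19, against 0.01 over all genes.

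The genes called higher in the lines belonged to several roles, with 4 of 7 genes of the cyclin-CDK1 switch higher and 2 lower, 2 of 3 anaphase genes higher and 1 lower, and 4 of 5 midzone genes higher and 0 lower. Cdc20 had 297 to 341 CPM in 8 colony lines (median 324), against 224, 204 and 184 in GFP-positive cells, a change of 0.65 ± 0.08 (edgeR adjusted p = 7.19e-06). Ncapg had 167 to 191 CPM in colony lines, against 110, 108 and 122, a change of 0.66 ± 0.07 (edgeR adjusted p = 3.13e-06). Kif23 had 159 to 185 CPM, against 114, 117 and 140, a change of 0.48 ± 0.08 (edgeR adjusted p = 1e-04). The lines stood above all 3 GFP-positive libraries in these genes. Cdk1 had 178 to 223 CPM in colony lines (median 205), against 151, 162 and 132, and Ccnb1 had 360 to 443 CPM (median 391), against 325, 298 and 273. Neither overlapped, and they rose by 0.46 and 0.41. For the lines, too, the share of all genes without overlap was not counted. The other genes called higher were Cdc25c at 0.43, Ube2c at 0.40, Ccna2 (cyclin A2) at 0.39, Anln (anillin, of the cleavage furrow) at 0.35, Hmmr at 0.32, and Birc5, Kif2c (the microtubule-depolymerising motor MCAK) and Ect2 at 0.24 each, with the joined Kif20a entry at 0.22.

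Lower in the lines were Cenpf, Cdc25b, Mki67, Cenpa, Foxm1, Plk1 and Espl1. Mki67 had 455 to 562 CPM in colony lines (median 492), against 955, 838 and 719 in GFP-positive cells, a change of -0.75 ± 0.09 (edgeR adjusted p = 6.29e-06). Cenpf had 181 to 296 CPM (median 235), against 441, 451 and 362, a change of -0.81 ± 0.13 (edgeR adjusted p = 0.000101). Cdc25b had 19.9 to 28.4 CPM, against 44.8, 36.3 and 39.9, a change of -0.76 ± 0.12 (edgeR adjusted p = 7.51e-05). In these 3 genes no line reached up to the lowest GFP-positive library, and they were the 3 still called lower with the lines' own sequencing project alone. Relative to entries of like length they stood at -0.63 for Mki67, -0.70 for Cenpf and -0.85 for Cdc25b, since entries over 4000 bases had a median of -0.11 and those of 1000 to 2000 bases of 0.09.

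The other changes to lower values were smaller. Foxm1 had 65.5 to 73.5 CPM in colony lines, against 111, 85.1 and 80.1 in GFP-positive cells, and Cenpa had 53.2 to 69.3 CPM, against 94.6, 81.2 and 70.6. They fell by 0.42 and 0.44, with replicate 3 the closest GFP-positive library in each. Plk1 at -0.27 and Espl1 at -0.26 overlapped between the groups, and with the first sequencing project alone Espl1 changed by 0.04. The checkpoint kinases Bub1, Bub1b and Ttk were not called in either direction. Among the other lists, 28 of 40 DNA replication genes rose and 1 fell (median 0.43, led by Tk1 at 1.37 and Rrm2 at 1.19), and of 50 other G2-M genes 24 rose and 6 fell (median 0.18). Summed visceral endoderm markers were 2.21 to 15.0 CPM in colony lines, against 119 to 866 in GFP-positive cells. Their part in the differences was not tested.

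Sorted lines differed from GFP-positive cells in 14 of 38 genes, 10 higher (26.3%) and 4 lower (10.5%), against 18.4% of 12593 genes higher and 18.3% lower. In either direction 4617 of the 12593 genes were called, so the 38 genes were called about as often as genes in general. Cdc20 had 342 and 309 CPM in sorted lines, against 224, 204 and 184 in GFP-positive cells, a change of 0.68 ± 0.11 (edgeR adjusted p = 0.00684). Cenpf had 191 and 215 CPM, against 441, 451 and 362, a change of -1.04 ± 0.13 (edgeR adjusted p = 0.00318), and Mki67 had 411 and 461 CPM, against 955, 838 and 719, a change of -0.94 ± 0.14 (edgeR adjusted p = 0.00492). Also higher were Cdk1 at 0.54, Cdc25c at 0.54, Ube2c at 0.50, Birc5 at 0.47, Kif23 at 0.46, Ncapg at 0.46, Ccnb1 at 0.40, Ccna2 at 0.39 and Hmmr at 0.29, and also lower were Cdc25b at -0.60 and Foxm1 at -0.50. This comparison uses the same GFP-positive libraries as the one before. Leaving out sorted line 1 or 2 leaves 1 sorted line, so no calls are counted there. The median log2 fold changes of the 38 were then 0.01 and 0.004, against -0.07 and -0.08 over all genes. Leaving out GFP-positive replicate 2 left 7 genes called, against 3512 of 12174 genes. In the first sequencing project alone, with 1 GFP-positive library, the median was 0.17. With all libraries, entries over 4000 bases had a median of -0.26 and those under 1000 bases of 0.25. The models of the 10 genes called higher were 537 to 3113 bases long and those of the 4 called lower 1897 to 9774. Relative to entries of like length Cenpf stood at -0.78, Mki67 at -0.68 and Cdc20 at 0.58.

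Against undifferentiated cells, kept in the same medium, the colony lines showed no called difference. The edgeR test called 0 of 38 genes in either direction, against 0.0162% of 12314 genes higher and 0.0244% lower. At an unadjusted p under 0.05 stood 12 of the 38 and 2426 of all 12314 genes. DESeq2 called 1 of the 38 and 302 of all genes. In 22 genes every colony line was above the undifferentiated library, against 24.8% of all genes, and the median log2 fold change was 0.17 against 0.03. The largest was Cenpf at 0.48, followed by Ect2 at 0.47, with 227 to 276 CPM in colony lines against 186 in undifferentiated cells (edgeR adjusted p = 0.108), and Kif11 at 0.44. The lowest values were -0.38 for Cdc25c, -0.25 for Birc5 and -0.20 for Ccnb2. Relative to entries of like length the median was 0.05. Between colony and sorted lines edgeR also called 0 of 38, 0% of 11870 genes higher and 0% lower, with a smallest adjusted p of 0.529 among the 38. At an unadjusted p under 0.05 stood 6 of the 38 and 1087 of all 11870 genes, and DESeq2 called 0 of the 38. The largest log2 differences were 0.23 for Cenpf, 0.22 for Kif11 and 0.20 for Ncapg, and the smallest were -0.24 for Birc5, -0.22 for Aurkb and -0.16 for Cenpa.

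The 8 colony lines were close to each other, with a median SD over the 38 genes of 0.10 on the log2 scale (0.04 to 0.24), against 0.15 over 8227 entries with a mean of at least 10 CPM. In 19 of the 38 genes the lines split in 1 of 2 ways. For 11 genes (Bub1b, Cenpe, Cenpf, Kif11, Hmmr, Ect2, Anln, Top2a, Mki67, Smc2 and Smc4) the 4 highest lines were 1, 4, 5 and 7, and for 8 others (Ccnb1, Cdk1, Cdc25b, Plk1, Aurkb, Ube2c, Cenpa and Birc5) they were 3, 6, 9 and 10. The other 19 genes were spread over 15 other sets of 4 lines. Kif11 had 298 to 332 CPM in lines 1, 4, 5 and 7 and 234 to 273 in the other lines. Ccnb1 had 360 to 372 CPM in lines 1, 4, 5 and 7 and 410 to 443 in the other lines. These lines were picked out after their values were seen, so no test is given.

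The 11 genes have models of 2463 to 9774 bases (median 3717) and the 8 genes of 532 to 1918 bases (median 1176). The same order stood in entries of all kinds. Entries over 4000 bases deviated from the mean of the lines by a median of 0.13 in line 1, 0.13 in line 4, 0.07 in line 5 and 0.09 in line 7. In lines 3, 6, 9 and 10 they deviated by -0.07, -0.10, -0.17 and -0.07. For entries under 1000 bases the signs were the other way round, from -0.11 in line 4 to 0.11 in line 3. The labels name nothing that separates these lines, and the origin of the length pattern was not tested.

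**Figure D5:**
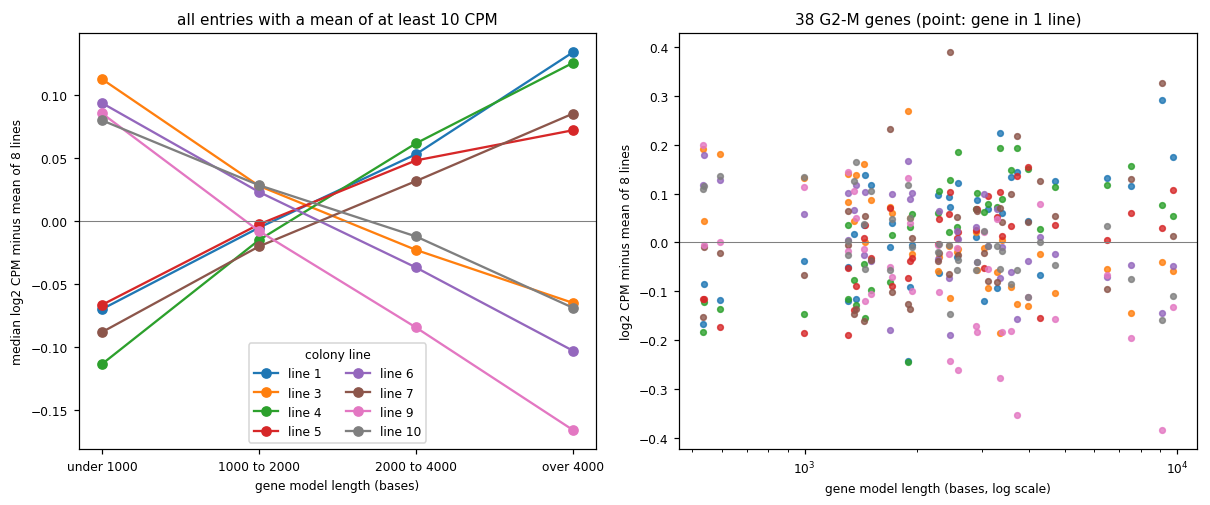
Left, median log2 deviation of all entries with at least 10 CPM from the mean of the 8 colony lines, by length class of the gene model (horizontal axis), 1 line per colony line. Right, deviations of the 38 G2-M genes in the 8 lines against model length (log axis); each point is 1 gene in 1 line, in the colours of the left panel. Mki67, the longest at 9774 bases, lies above 0 in lines 1, 4, 5 and 7.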

How the data were processed

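RNA of 19 libraries in 9 groups was analysed from 1 deposited gene table each. Counts are whole reads per gene and RPKM values were scaled by the authors to model length and library size, both made with rpkmforgenes on RefSeq models without 3′ untranslated parts for mouse build mm9, per the file headers. The submitters' processing notes name bcl2fastq, CASAVA (1.8.2), Trimmomatic (0.3.3), TopHat2 (2.0.14) and Bowtie2 (2.2.5). Whether counting used strand is not given in the sources used here. Where a title and the sorting entry of a sample disagreed (unsorted day-2 cells, AICAR fractions), the title decided. The 38 genes, the gene lists and the naming rule were chosen with earlier results of these data known. Named genes are 12 spread over the roles, the 3 largest changes in each direction, and members against the majority of calls.

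Counts were tested with edgeR 4.0.16 (R 4.3.3, quasi-likelihood, TMM factors over all 19 libraries, minimum count 10 and total 15), fitting only the groups compared, with Benjamini-Hochberg adjusted p under 0.05 over all genes. The procedure was tested on simulated data. For pairs of single libraries the log2 ratio of CPM was taken (prior count 2), where either library had 100 reads or more, and called past 2-fold. Alternatives were DESeq2 1.42.0, TMM within each comparison, no filter, 1 fit of all libraries, each replicate left out, and the first sequencing project alone; length classes were added after seeing the data. Depth was 5771671 to 14233421 reads in genes. Motifs and figures were made with Python 3.11.15, pandas 2.3.3, numpy 2.4.6 and matplotlib 3.10.9.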

Additional observations from a re-analysis of the deposited data

Results flagged for a closer look

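Bub1b, the spindle checkpoint kinase BUBR1, had 375 CPM in colony line 9, below the 421 to 453 CPM of the other 7 lines, and the gap was larger than Dixon's criterion allows for 8 values. Of 39 series of values tested in the colony lines this was the 1 that stood out, and chance gives about 1 in 20.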

How the results depend on the processing

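The 21 genes called between colony lines and GFP-positive cells ranged from 18 to 23 when 1 library was left out, against 6425 to 7154 of all genes. For sorted lines against GFP-positive cells (14 called) the range was 0 to 18, with 0 in the fits left with 1 sorted line. Leaving out GFP-positive libraries gave 7 to 18, against 3512 to 6579 of all genes. The first sequencing project alone, with 1 GFP-positive library, gave 25, at a median log2 fold change of 0.17 against -0.02 over all genes. Calls over all genes also rose in that fit, so the 25 do not set the G2-M genes apart. With a replicate block, 17 were called, 10 higher and 7 lower, against 7093 of 12593 genes. GFP-positive replicate 3 has no sorted line of its number, so it adds nothing to the difference in that fit. Correlations of deviations ran from -0.03 to 0.03. The deviations of the 2 sorted lines mirror each other, so these correlations cannot tell whether equal numbers pair the libraries. For GFP-positive against untreated day-15 cells (33 called) the range was 16 to 35, against GFP-negative cells (0) 0 to 32, against day-2 sorted cells (1) 0 to 22, against undifferentiated cells (1) 0 to 8, and for colony lines against undifferentiated cells (0) 0 to 1, with the 1 call made without line 9. Over all genes these ranges were, in the same order, 2718 to 9301, 0 to 3870, 0 to 3943, 0 to 3966 and 0 to 241. DESeq2 called 23, 8, 3 and 1 genes in the last 4 of these comparisons, against 1129, 1947, 2026 and 302 of all genes. The fit of all 19 libraries called 32, 22, 9 and 0, against 3513, 4239, 4300 and 1 of 14871 genes. Omitting the filter gave 2 genes each for day-2 sorted and undifferentiated cells, beside 1137 of 18440 and 1041 of 18251 genes. Without the second sequencing project the Espl1 change in colony lines was 0.039, against -0.26. Of 1327 values of single genes under alternatives, 1169 kept direction and side of the threshold, 93 gained and 40 lost the call. Another 24 changed sign with no call in the main or the alternative fit, and 1 changed sign with a call. The causes were not tested. Groups of 1 library give no spread of their own, which limits the comparisons that use them.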
